A study of Mus musculus with 18 samples.

Results

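The regions described here are the H3K4me3 peaks of Arid1a conditional knockout (cKO) hippocampus that overlap no wild-type (WT) H3K4me3 peak by as much as 1 bp, called new peaks below. They number 6486 of the 28234 peaks in the cKO list, or 23.0%, and the other 21748 cKO peaks overlapped a WT peak. Hippocampi of C57BL/6 mice were used throughout. ChIP-seq at 3 weeks of age comprised 1 cKO and 1 WT library for each of H3K4me3, H3K27ac, H3K27me3 and input. RNA-seq comprised 2 cKO and 2 WT libraries at postnatal day 21 (P21) and 3 cKO and 3 WT libraries at embryonic day 16.5 (E16.5). The Cre driver, the cells in which Arid1a was deleted and any pooling of animals are not given in the sources used here, and both assays were made on bulk tissue.

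H3K4me3, a methyl mark on the tail of histone H3 laid down by SET1 and MLL complexes, is found mainly at the starts of transcribed genes and at CpG-rich promoters. Promoters of developmental regulators can carry it together with H3K27me3, the mark of Polycomb repression, and are then called bivalent, while H3K27ac marks active promoters and enhancers. ARID1A, a subunit that binds DNA, belongs to BAF, the mammalian SWI/SNF complex that remodels nucleosomes and is known to oppose Polycomb and to keep enhancers accessible.

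The new peaks reported in most detail lie at gene starts where WT hippocampus had no H3K4me3 peak. Promoter windows of 8 such genes are shown, from RefSeq (GRCm38.p6), each from 250 bases before to 50 bases after the annotated start, with CG dinucleotides in capitals. The first 4 belong to developmental transcription factors and a neuropeptide gene whose new peaks also carried H3K27me3 in both genotypes: Dlx2 (chr2:71546705-71547004, minus strand), Gata2 (chr6:88198414-88198713, plus strand), Isl1 (chr13:116309639-116309938, minus strand) and Tac1 (chr6:7554811-7555110, plus strand). The other 4 belong to genes whose new peaks had no WT H3K27me3: Olfml3 (chr3:103737952-103738251, minus strand), Aass (chr6:23132937-23133236, minus strand), Efcab8 (chr2:153778996-153779295, plus strand) and Wdr63 (chr3:146107987-146108286, minus strand). They were chosen after their values were seen.
Dlx2: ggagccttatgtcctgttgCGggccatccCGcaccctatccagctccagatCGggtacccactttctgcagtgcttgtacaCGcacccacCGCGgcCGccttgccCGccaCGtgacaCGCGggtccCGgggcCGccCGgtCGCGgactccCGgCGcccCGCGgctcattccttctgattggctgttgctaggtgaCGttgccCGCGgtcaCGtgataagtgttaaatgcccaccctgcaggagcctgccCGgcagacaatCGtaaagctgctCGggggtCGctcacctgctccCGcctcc
Gata2: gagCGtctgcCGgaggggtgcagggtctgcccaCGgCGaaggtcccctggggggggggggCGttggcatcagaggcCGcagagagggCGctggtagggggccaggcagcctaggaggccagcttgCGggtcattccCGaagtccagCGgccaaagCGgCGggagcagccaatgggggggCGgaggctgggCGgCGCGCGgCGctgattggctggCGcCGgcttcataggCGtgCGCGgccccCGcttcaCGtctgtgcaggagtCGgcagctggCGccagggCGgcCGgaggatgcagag
Isl1: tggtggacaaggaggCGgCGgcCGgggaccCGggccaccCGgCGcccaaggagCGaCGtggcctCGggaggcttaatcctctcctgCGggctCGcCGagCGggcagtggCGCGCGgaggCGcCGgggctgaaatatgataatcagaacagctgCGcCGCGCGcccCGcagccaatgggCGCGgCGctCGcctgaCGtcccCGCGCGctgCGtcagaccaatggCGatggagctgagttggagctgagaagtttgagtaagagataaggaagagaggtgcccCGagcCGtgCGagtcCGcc
Tac1: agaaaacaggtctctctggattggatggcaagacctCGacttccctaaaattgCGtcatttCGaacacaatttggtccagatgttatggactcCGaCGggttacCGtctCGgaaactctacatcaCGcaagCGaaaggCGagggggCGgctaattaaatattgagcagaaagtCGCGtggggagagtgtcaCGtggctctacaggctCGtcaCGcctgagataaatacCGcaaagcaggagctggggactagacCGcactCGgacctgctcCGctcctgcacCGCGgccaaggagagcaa
Olfml3: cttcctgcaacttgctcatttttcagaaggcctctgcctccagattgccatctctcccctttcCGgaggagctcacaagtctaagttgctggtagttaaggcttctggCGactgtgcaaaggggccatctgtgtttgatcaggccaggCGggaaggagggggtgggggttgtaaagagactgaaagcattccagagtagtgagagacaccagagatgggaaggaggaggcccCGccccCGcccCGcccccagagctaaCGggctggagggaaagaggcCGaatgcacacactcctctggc
Aass: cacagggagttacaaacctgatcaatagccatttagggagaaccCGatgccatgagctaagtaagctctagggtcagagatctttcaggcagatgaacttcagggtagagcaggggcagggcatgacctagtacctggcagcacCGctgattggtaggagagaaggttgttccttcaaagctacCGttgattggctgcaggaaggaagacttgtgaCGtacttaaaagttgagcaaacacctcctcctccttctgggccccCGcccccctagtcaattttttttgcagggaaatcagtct
Efcab8: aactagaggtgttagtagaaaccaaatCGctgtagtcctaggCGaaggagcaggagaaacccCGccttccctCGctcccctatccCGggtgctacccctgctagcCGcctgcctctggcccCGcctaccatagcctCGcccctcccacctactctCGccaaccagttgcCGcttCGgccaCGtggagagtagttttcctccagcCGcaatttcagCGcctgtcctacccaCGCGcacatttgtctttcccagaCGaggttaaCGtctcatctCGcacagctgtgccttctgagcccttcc
Wdr63: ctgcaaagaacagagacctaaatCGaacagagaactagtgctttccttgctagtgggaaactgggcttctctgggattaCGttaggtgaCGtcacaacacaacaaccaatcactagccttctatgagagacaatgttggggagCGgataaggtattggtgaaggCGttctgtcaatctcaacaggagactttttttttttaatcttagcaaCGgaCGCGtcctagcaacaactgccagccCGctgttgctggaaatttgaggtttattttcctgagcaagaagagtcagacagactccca
The windows of Dlx2, Gata2, Isl1 and Tac1 held 29, 29, 37 and 22 CG dinucleotides in 300 bases, and those of Olfml3, Aass, Efcab8 and Wdr63 held 8, 5, 19 and 9. The new peak covered 167 bases of the Dlx2 window, 160 of the Gata2 window, 89 of the Isl1 window, 173 of the Tac1 window, 300 of the Olfml3 and Aass windows, 173 of the Efcab8 window and 152 of the Wdr63 window.

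The rule chose the members on the 2 H3K4me3 lists, so their strength is a description and was not tested. New peaks were short and weak. Their median length was 238 bp, ranging from 177 to 1525 bp, against 905 bp for cKO peaks that overlapped a WT peak. Their median fold enrichment over the input expectation, the authors' value, was 4.84 with a maximum of 11.03, against a median of 9.85 for overlapping peaks, and the median pileup was 13 fragments against 30. Peak strength is given as −log10 q, where q is the peak caller's false discovery rate. Among cKO peaks with a −log10 q between 2 and 5, 2535 of 3712 (68.3%) were new, while at 20 and over 3 of 11463 were. New peaks covered 1811303 bp in all. Nearest to the threshold inside it were peaks by Hdac5, Irf4 and Fndc3b, each 1 bp from a WT peak with fold enrichments of 4.47, 5.62 and 4.47. Just outside it were peaks by 1810010H24Rik, Cdr2l and Tfeb, each sharing 1 bp with a WT peak with fold enrichments of 4.10, 3.83 and 4.41. In all 55 new peaks lay within 10 bp of a WT peak, and 68 overlapping peaks shared 10 bp or less. A new peak therefore means that no WT peak was called there, and signal tracks were not used here.

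The cKO and WT H3K4me3 libraries held 17795796 and 18488657 filtered tags, with estimated fragment lengths of 177 and 156 bp and median fold enrichments of 7.82 and 8.90 over all peaks. The reverse comparison gave 2210 of 25145 WT peaks without a cKO overlap (8.79%). Arid1a RNA was 110 and 89.2 CPM (counts scaled to the same library total) in the cKO libraries, against 215 and 205 CPM in the WT libraries at P21 (log2 change −1.08 ± 0.13 SE, adjusted p = 0.00507, edgeR). The Arid1a gene itself held 6 cKO peaks, 3 of them new, against 3 WT peaks. New peaks made up 121 of 516 cKO peaks within 10 Mb of Arid1a (23.4%, Wilson 95% interval 19.998 to 27.3%), between 20.97% and 26.7% of cKO peaks on each autosome, and 15.8% on X. All 10 dentate granule neuron and all 11 CA pyramidal neuron markers passed the RNA filter at P21.

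The distance to the nearest WT peak varied widely. New peaks within 1 kb of a WT peak numbered 3070 (47.3%), those between 1 and 5 kb numbered 735 (11.3%), and those over 5 kb away, called isolated below, numbered 2681 (41.3%), of which 1823 lay over 20 kb away. The WT peaks without a cKO overlap were within 1 kb of a cKO peak in 63.0% of cases and over 5 kb away in 28.0%. For 2707 of the 3070 new peaks within 1 kb (88.2%), the neighbouring WT peak overlapped another cKO peak, so that the new peak stood beside a shared one. These peaks sat beside 2799 WT peaks, 11.1% of the WT list, whose median length was 741 bp, against 667 bp for the other WT peaks. Median fold enrichment was 4.84 both for the 3070 peaks within 1 kb and for the isolated peaks.

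**Figure D1:**
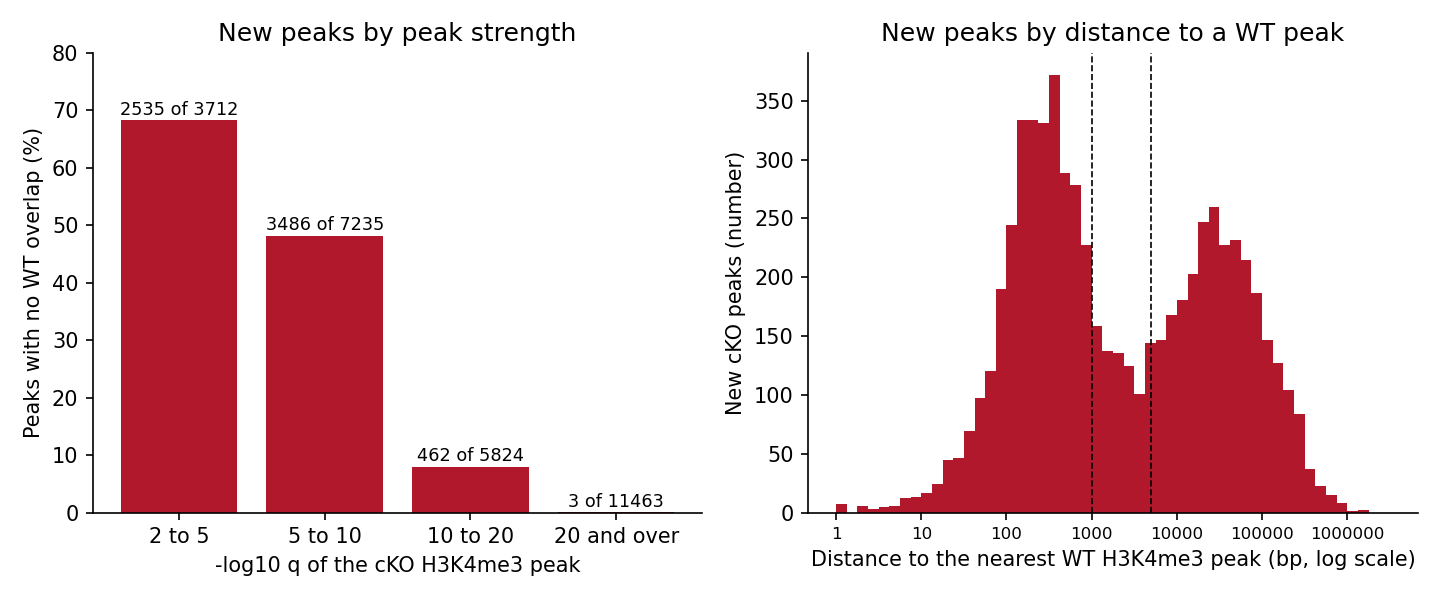
Left, share of cKO H3K4me3 peaks that overlap no WT peak (%) in 4 classes of peak strength (−log10 q), with numbers of new and of all cKO peaks above the bars: 68.3% of the weakest and 3 of 11463 of the strongest were new. Right, number of new peaks by distance to the nearest WT H3K4me3 peak (bp, log scale), with dashed lines at 1 and 5 kb: 47.3% lie left of the first line and 41.3% right of the second.

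New peaks lay mostly inside genes. Of the 6486, 29.0% (95% interval 28.0 to 30.2%) were within 1 kb of a gene start, 55.4% inside a gene and 15.6% between genes, against 75.8%, 17.3% and 6.88% of overlapping cKO peaks. The WT peaks without a cKO overlap divided much as the new peaks did, with 28.1%, 55.0% and 16.9%. With 1 library per genotype these shares have no test, and their intervals cover counting error only. Overlapping peaks were longer, and among peaks shorter than 300 bp 27.5% of 4546 new and 47.3% of 2642 overlapping ones were at a start. Of new peaks with a summit within 5 kb of a start of known strand, 2280 of 3206 (71.1%) were downstream of it, against 73.4% of overlapping peaks. The bulk of overlapping summits lay in the first kb downstream (62.4%), while new summits were spread over the first kb (22.9%), the second (25.1%) and 2 to 5 kb downstream (23.1%). Among such summits, 33.9% of the 2083 from new peaks within 1 kb of a WT peak lay 1 to 2 kb downstream. Of the 719 from isolated new peaks 48.0% lay in the first kb downstream.

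**Figure D2:**
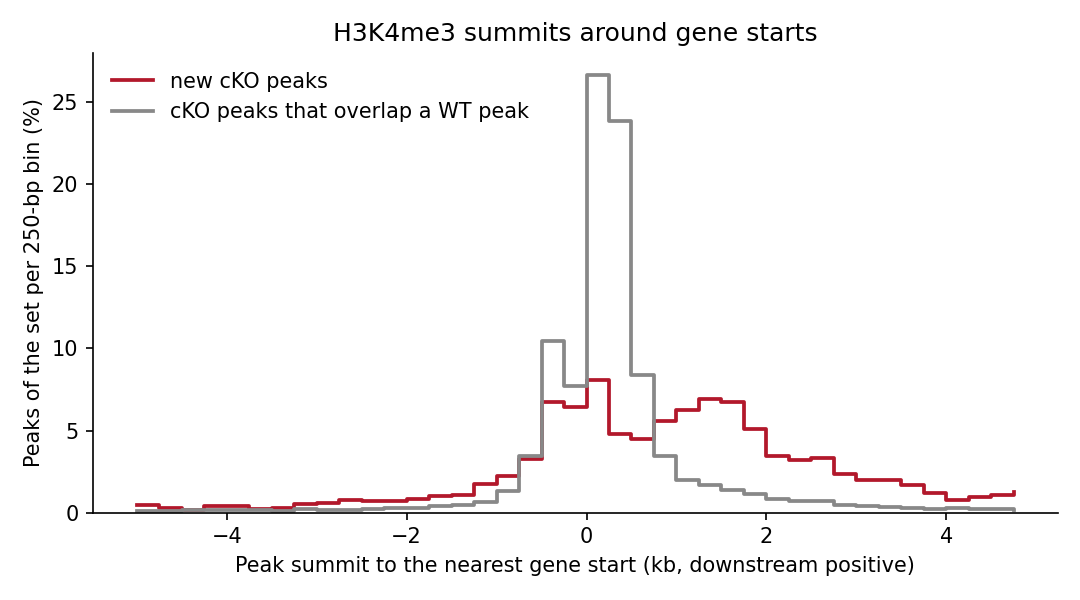
Peak summits around the nearest gene start, in kb with downstream positive, as percent of the summits of each set within 5 kb per 250-bp bin. Overlapping cKO peaks (grey) crowd the first 500 bp downstream, and new cKO peaks (red) show a low peak at the start and a broad shoulder between 1 and 2 kb downstream, the interval that holds 25.1% of them.

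Several new peaks could fall in 1 gene, and the genes named for this were picked out after the counts were seen. At least 1 new peak lay in or within 1 kb of 4722 genes, 2 or more in 1110 genes and 5 or more in 57. The most were 17 in Sox2ot, the long non-coding RNA gene around Sox2, 15 in Tcf4, a neuronal bHLH factor, and 9 in Nfix and 8 in Nfia, nuclear factor I genes of neural development. Camk2a, a kinase of excitatory synapses, held 7, and Zbtb20, a hippocampal patterning factor, held 6. Each of these 6 genes also had a WT peak, and several are long: Zbtb20 spans 759 kb and Nfia 541 kb. Gata2, a zinc-finger transcription factor, held 6 in 13.1 kb with no WT peak.

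The strongest new peaks at a gene start or end, by −log10 q, lay at genes of varied function. The highest −log10 q was at Cyp2d22, a cytochrome P450 gene (chr15:82379925-82380272, fold enrichment 11.03, pileup 29), 24989 bp from the nearest WT peak and with 267 bp under a cKO H3K27ac peak. The next lay at the start of Wdr63, a gene of the motile cilium (chr3:146107328-146108138, fold enrichment 9.85), 41836 bp from a WT peak and with 221 bp under cKO H3K27me3. Aass, a lysine-degrading enzyme gene, had one of 653 bp entirely under cKO H3K27me3, 255841 bp from a WT peak, and its RNA was 2.70 and 2.01 CPM in cKO, against 3.21 and 3.51 CPM in WT libraries (adjusted p = 0.312). At Klhl21, Mark2, Myl6, Troap and Zfp691 the new peak lay within 200 bp of a WT peak, and at H2-Ab1 905 bp away. At Pld1 it lay 45012 bp away, at an annotated start of the gene, which had a WT peak elsewhere. The new peak at Pm20d1 had 274 bp under cKO H3K27me3. Of the genes named here for the strength of their peaks, Cyp2d22 and Wdr63 were the 2 whose RNA passed the test at P21, and Troap was too low to be tested.

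Most new peaks carried neither of the other marks. A cKO H3K27ac peak overlapped 13.4% of new peaks and a WT H3K27ac peak 3.02%, against 61.4% and 38.9% of overlapping H3K4me3 peaks. A cKO H3K27me3 peak overlapped 16.9% of new peaks and a WT one 5.58%, against 14.6% and 2.70%. Both cKO marks met on 43 new peaks, and 4565 (70.4%) had neither. The cKO lists of these marks were longer, with 24065 H3K27ac peaks in cKO against 13006 in WT, and 15659 H3K27me3 peaks in cKO against 4124 in WT. Of all cKO peaks of these marks, 57.7% for H3K27ac and 86.6% for H3K27me3 overlapped no WT peak of the same mark.

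A cKO H3K27me3 peak overlapped 22.6% of the 2681 isolated new peaks (WT H3K27me3 8.09%) and 11.8% of the 3070 within 1 kb of a WT peak (WT H3K27me3 3.06%). Their cKO H3K27ac shares were 13.6% for isolated peaks and 11.99% for those within 1 kb. Length moved with these shares. Below 300 bp cKO H3K27me3 overlapped 14.7% of new and 13.2% of overlapping peaks, and cKO H3K27ac 10.7% and 16.2%. At 600 bp and over cKO H3K27me3 overlapped 30.7% of 179 new peaks and 14.6% of 14634 overlapping peaks, and cKO H3K27ac 33.0% and 78.4%.

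**Figure D3:**
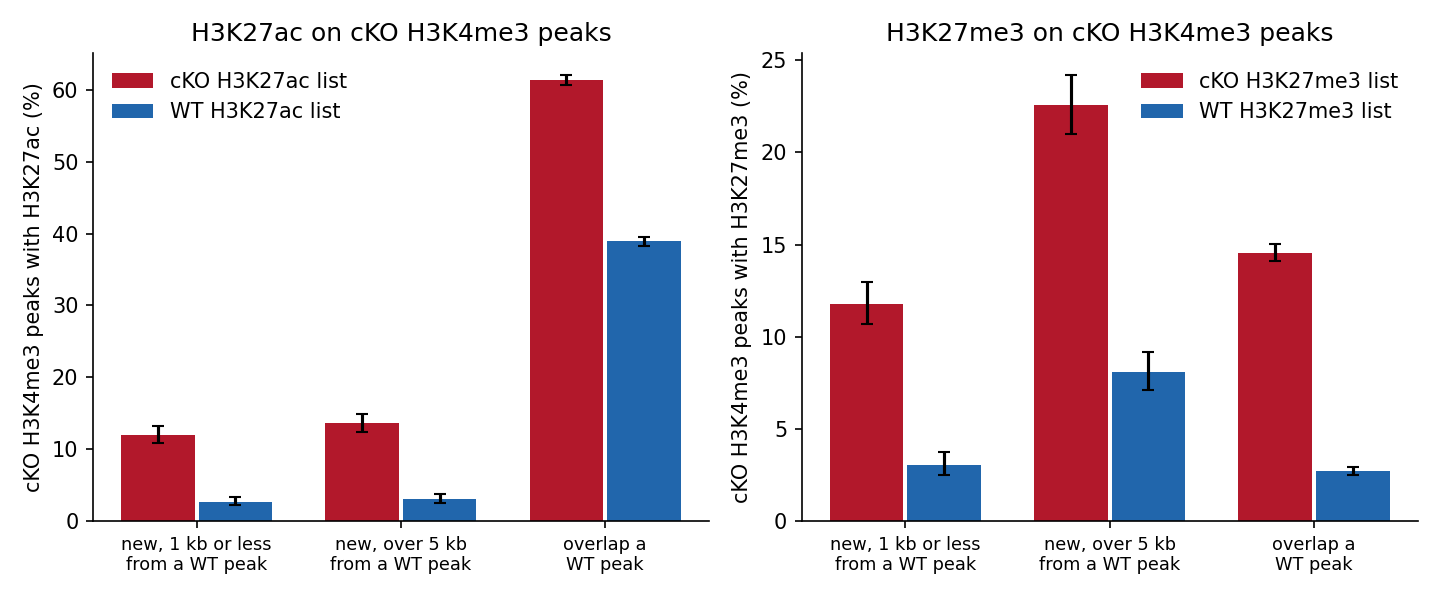
Share of cKO H3K4me3 peaks (%) that overlap an H3K27ac peak (left) or an H3K27me3 peak (right) of the cKO list (red) or WT list (blue), for new peaks within 1 kb of a WT H3K4me3 peak, new peaks over 5 kb away, and peaks that overlap a WT peak. Error bars are Wilson 95% intervals, which cover counting error only; H3K27ac is low on both kinds of new peak, at 11.99% and 13.6% in cKO, and cKO H3K27me3 is highest on the isolated ones, at 22.6%.

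A new peak within 1 kb of the start was found for 1920 of 34610 reference genes. Of these 1337 also had a WT H3K4me3 peak in the gene or within 1 kb, and 583, called newly marked below, had none: 338 protein-coding and 245 long non-coding RNA genes. For 169 of the 583 the reference gives no strand, and the peak was at either end of the gene. At newly marked genes the new peaks carried cKO H3K27me3 in 270 cases (46.3%), WT H3K27me3 in 139 (23.8%), cKO H3K27ac in 65 (11.1%) and WT H3K27ac in 16 (2.74%). Among the protein-coding ones 193 of 338 had cKO H3K27me3 (57.1%).

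Homeobox genes, which encode DNA-binding factors that pattern the embryo, made up at least 30 of the 583 newly marked genes. The 124 homeobox genes counted are those with a chosen set of symbol stems, and homeobox genes with other stems were left out. Of these 124, 93 had no WT peak, and 30 of the 93 were newly marked (32.3%). Over all protein-coding genes without a WT peak the count was 338 of 7943 (4.26%). All 30 had cKO and WT H3K27me3 on their new peaks and none had cKO H3K27ac. They include Dlx2, Dlx6 and Gsx1 of subpallial development, Isl1 and Six3 of the striatum, Otx2 of the choroid plexus and dorsal midline, Gbx2 of the thalamus, and 4 Hox genes, Hoxa4, Hoxc6, Hoxc9 and Hoxd1. Newly marked were also Gata2, Gata3 and Gata5 of 6 Gata genes, Tbx3, Tbx18 and Tbx21 of 13 T-box genes, Foxa1, Foxb2, Foxc2 and Foxd4 of 44 Fox genes and Sox14 of 19 Sox genes, all with H3K27me3 in both genotypes. Of 44 collagen genes 5 were newly marked. Among genes without a WT peak, newly marked were 3 of 4 Gata, 3 of 8 T-box and 4 of 16 Fox genes. On the same base they were 1 of 4 Sox genes and 5 of 20 collagen genes. These families and the homeobox stems were picked by gene symbol after the newly marked genes were seen. The counts, and the contrast with all protein-coding genes, are thus a description and no estimate for a whole family.

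The CG content of newly marked promoters was counted by the other mark. The median number of CG dinucleotides per 300-base window was 9 over 444 windows of newly marked genes, 21 over windows near an overlapping cKO peak, 3 over windows with no cKO peak and 7 over all 32850 windows. Newly marked windows held a median of 15 where the new peak had cKO H3K27me3, 6 where it had none and 5 where it had cKO H3K27ac. Of the windows printed above, Dlx2, Gata2, Isl1 and Tac1 had cKO H3K27me3 and over 15 CG, and Aass and Wdr63 had cKO H3K27me3 with 5 and 9. Efcab8 and Olfml3 had no H3K27me3, with 19 and 8. The letters GGGCGG, the core of the Sp1 motif, were found on either strand in 43.0% of newly marked windows and 35.7% of all windows, the letters CCAAT in 34.0% and 37.4%, and the AP-1 letters TGANTCA in 9.46% and 7.81%. No overlap between motifs was removed, and a match is only a match of letters.

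RNA at P21 was tested for 1292 of the 1920 genes with a new peak at the start. Of these 69 were higher in cKO and 46 lower, Arid1a itself being among the 46 (edgeR, adjusted p under 0.05). Over all 17407 genes tested, 2.81% were called higher and 3.91% lower. The median log2 change of the 1292 was 0.03, against 0.01 over all tested genes. Of the 583 newly marked genes 233 passed the RNA filter, and 22 of these (9.44%) were higher in cKO and 8 (3.43%) lower, with a median log2 change of 0.20. Of the 233, 13 reached the filter's count minimum in both cKO libraries and in no WT library, 4 of them among the 22 called higher, and 2 did so in WT alone, so the tested genes are not all members and these counts support no statement on the whole set. Genes with a new peak and a WT peak had 47 higher and 38 lower of 1059 tested (median 0.00). Genes with an overlapping peak but no new peak at the start had 256 and 437 of 11659. Genes with no cKO peak at the start and no WT peak in the gene had 74 (5.28%) and 94 (6.71%) of 1401. These last could still hold a new peak away from the start. Every cKO library was above every WT library for 96 of the 233 newly marked genes and below for 44, where all tested genes gave 28.2% and 27.9%. The newly marked genes called depended on single libraries: 4 were higher and 10 lower without WT replicate 2, 16 and 8 without WT replicate 1, 30 and 17 without cKO replicate 1, and 28 and 12 without cKO replicate 2. Among all genes with a new peak the counts were 19 and 34, 40 and 29, 130 and 108, and 100 and 75 in the same order. The split of all calls also moved with the scaling, to 570 higher and 519 lower with upper-quartile scaling, against 489 and 680 with TMM, while newly marked genes gave 22 and 8 with either. In bulk tissue, fewer cells of a type and less RNA per cell cannot be told apart.

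**Figure D4:**
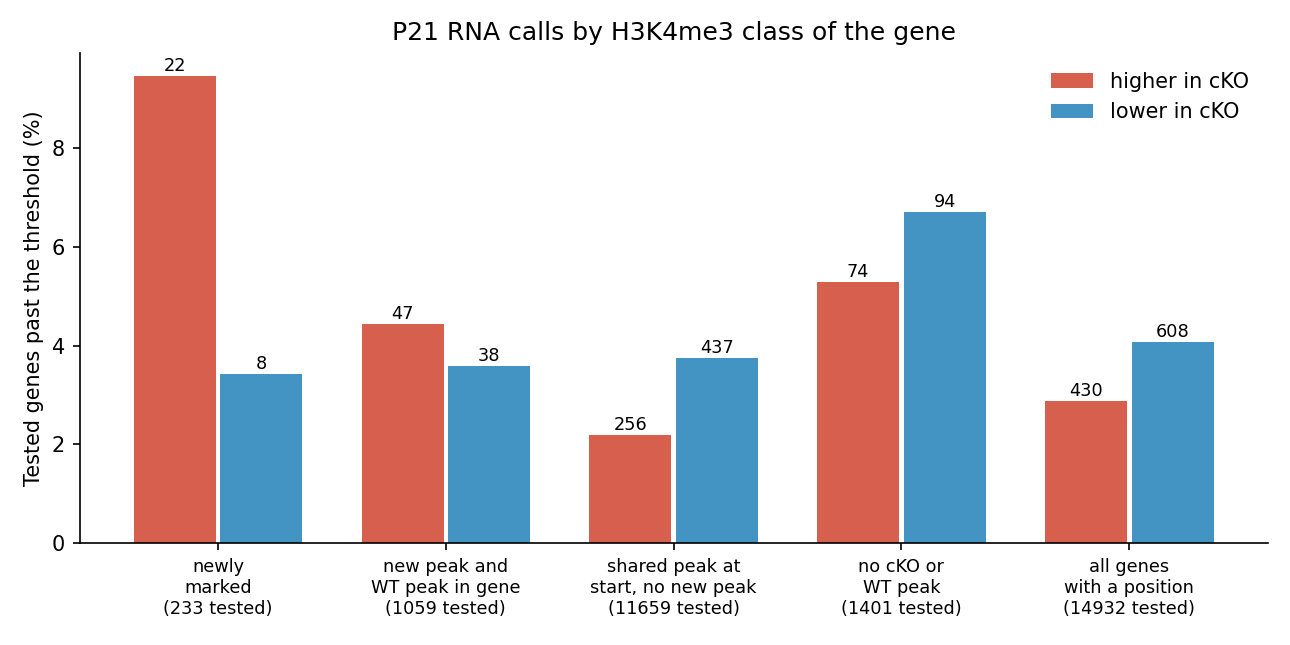
Share of tested genes (%) called higher (red) or lower (blue) in cKO at P21 by edgeR, in 4 classes of gene by H3K4me3 peaks and over all genes with a reference position; numbers above the bars count genes. Newly marked genes had 22 of 233 higher and 8 lower. Of genes with no cKO peak at the start and no WT peak in the gene, 74 were higher and 94 lower.

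Among newly marked genes that were higher were transcription factors of H3K27me3-bearing promoters. Isl1, a LIM homeobox factor, had 17 and 17 counts in cKO, against 1 and 1 in WT libraries, so that it passed the filter on low counts through the cKO libraries alone. The ratio was 16.9 with an exact 95% counting interval of 4.33 to 145 (edgeR adjusted p = 0.0174). The call was lost without either WT library or without cKO replicate 2, and under DESeq2. Six3, a forebrain homeobox factor, had 4.72 and 3.26 CPM in cKO, against 1.202 and 1.15 CPM in WT (log2 change 1.76 ± 0.32, adjusted p = 0.0219). Gata2 had 11.6 and 14.6 CPM in cKO, against 6.86 and 5.67 CPM in WT (log2 change 1.07 ± 0.20, adjusted p = 0.0232). For Isl1, Six3 and Gata2 both cKO libraries were above both WT libraries. Irx5, an Iroquois homeobox factor with a WT peak 493 bp from its new peak but over 1 kb from the gene, had 14 and 18 counts in cKO, against 3 and 1 in WT (ratio 7.96, interval 2.82 to 31.0, adjusted p = 0.0423). Of the newly marked homeobox genes counted above, 9 passed the RNA filter, and Isl1, Six3 and Irx5 were the 3 called. Isl1 and Irx5 passed it through cKO libraries alone, so the count of 3 is no measure of the family. Dlx2 did not pass the test, with 10.1 and 7.12 CPM in cKO, against 7.51 and 5.87 CPM in WT, groups that overlap (adjusted p = 0.387). Tac1, the substance P precursor, had 4.63 and 8.32 CPM in cKO, against 2.95 and 3.06 CPM in WT, and missed the threshold (adjusted p = 0.0757). Isl1, Six3 and Tac1 are among 15 listed striatal neuron genes, whose summed CPM was 328 and 444 in cKO, against 243 and 276 in WT. Both cKO libraries were above both WT libraries for 11 of the 15 and below for 0, where all tested genes gave 28.2% and 27.9%. Other lists were as one-sided: the imprinted list had 11 of 12 above and 0 below, and the choroid plexus and ependyma list 7 of 13 and 0. The microglia list had 0 of 11 above and 8 below. The part of striatal cells was not tested.

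Other newly marked genes that were higher had functions outside transcription. Magel2, a paternally expressed gene of the Prader-Willi region, had 7.76 and 5.32 CPM in cKO, against 1.45 and 0.903 CPM in WT (log2 change 2.47 ± 0.33, adjusted p = 0.00822). Cp, the copper ferroxidase ceruloplasmin, had 24.7 and 28.8 CPM in cKO, against 10.3 and 10.9 CPM in WT (log2 change 1.34 ± 0.14, adjusted p = 0.00371), and its new peak overlapped a cKO H3K27ac peak. Sult1a1, a phenol sulfotransferase, had 30.5 and 29.7 CPM in cKO, against 9.26 and 12.8 CPM in WT (adjusted p = 0.00507). For all these genes the libraries of the groups do not overlap. Aire, the thymic autoimmune regulator, had 2.36 and 2.16 CPM in cKO, against 0.401 and 0.451 CPM in WT (adjusted p = 0.0139). Like Isl1, Aire passed the filter through the cKO libraries alone. Cdh19, a cadherin of glial precursors, had 19.7 and 10.2 CPM in cKO, against 3.31 and 4.06 CPM in WT (adjusted p = 0.0259). Cyp2d22, with the highest peak, had 50.3 and 54.1 CPM in cKO, against 35.9 and 29.0 CPM in WT (log2 change 0.68 ± 0.13, adjusted p = 0.0259).

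Wdr63, Hydin and Efcab8 were higher too, the first 2 being genes of motile cilia. Wdr63 had 3.76 and 2.06 CPM in cKO, against 0.651 and 0.602 CPM in WT (adjusted p = 0.0249). Efcab8 had 1.54 and 2.11 CPM in cKO, against 0.551 and 0.251 CPM in WT (adjusted p = 0.0398). Hydin, which like Irx5 and Dlx2 was picked out after its values were seen, had 3.04 and 3.36 CPM in cKO, against 1.40 and 1.25 CPM in WT (adjusted p = 0.0457). Markers of choroid plexus and ependyma were uneven among the P21 libraries: the summed CPM of the 13 listed was 3672 and 1069 in cKO, against 1447 and 1211 in WT, with 2 called higher, and their part in these values was not tested.

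The 8 newly marked genes that were lower included genes known from glia. Trf, the iron carrier transferrin, made by oligodendrocytes in brain, had 46.2 and 47.5 CPM in cKO, against 137 and 143 CPM in WT (log2 change −1.58 ± 0.10, adjusted p = 0.000555). Olfml3, a secreted protein of microglia, had 4.05 and 4.86 CPM in cKO, against 18.3 and 19.5 CPM in WT (log2 change −2.08 ± 0.17, adjusted p = 0.00175). Slc7a10, an astrocyte transporter of serine and glycine, had 15.3 and 14.1 CPM in cKO, against 38.1 and 33.9 CPM in WT (log2 change −1.29 ± 0.13, adjusted p = 0.00310). At each of these genes an H3K4me3 peak was called in cKO alone while the RNA was lower, and neither group's libraries overlap the other's. The new peak of Slc7a10 carried H3K27me3 in both genotypes, and those of Trf and Olfml3 carried neither other mark. Vcam1, a cell adhesion molecule, had 14.8 and 15.9 CPM in cKO, against 38.9 and 32.9 CPM in WT (adjusted p = 0.00435). Adamts4, an aggrecan-cleaving protease, Galnt6, an enzyme of mucin-type glycosylation, Fgf1 and Sec14l5 fell by 0.72 to 1.27 on the log2 scale. Markers of oligodendrocytes moved the same way, with a summed CPM of 4015 and 3796 in cKO, against 6252 and 6590 in WT, and 8 of 12 called lower. For microglia the sum was 201 and 212 in cKO, against 353 and 318 in WT, with 7 of 11 called lower. Their part in these changes was not tested.

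**Figure D5:**
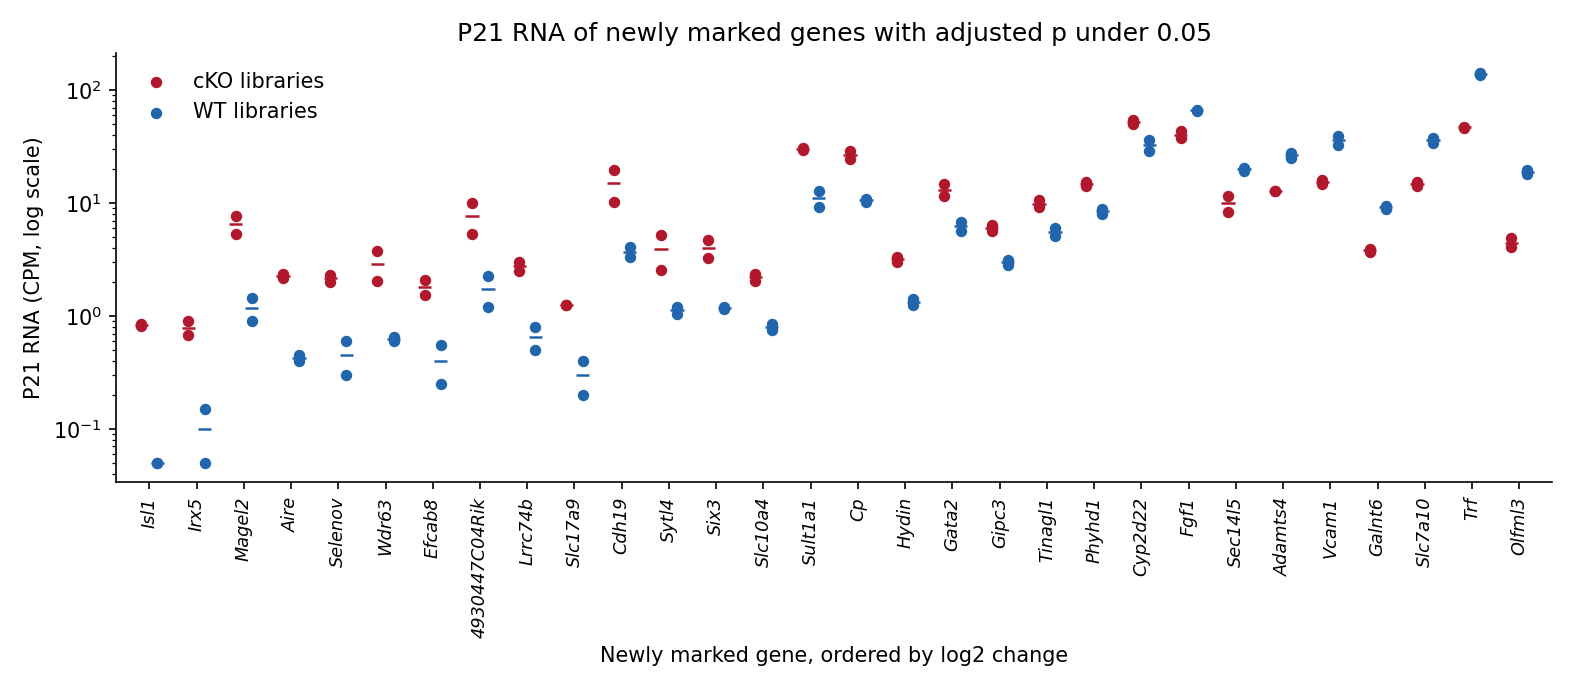
P21 RNA (CPM, log scale) of the 30 newly marked genes with an edgeR adjusted p under 0.05, ordered by log2 change; each dot is a library (cKO red, left; WT blue, right) and the dash is the mean of 2. The 22 genes on the left were higher in cKO, by most at Isl1 and Irx5, which had 1 to 3 counts per WT library, and the 8 on the right lower, by most at Olfml3, and in none do the groups overlap.

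Genes that had a WT peak besides the new one changed in both directions. The new peaks of Wnt10b, Cryab and Aldh3b1 lay over 5 kb from the nearest WT peak, and those of the other genes named here within 1 kb. En1, an engrailed homeobox factor with H3K27me3 on the new peak in both genotypes, had 24 and 22 counts in cKO, against 2 and 0 in WT, and passed the filter through cKO alone (ratio 22.9, interval 5.98 to 195, adjusted p = 0.0216). Wnt10b, a Wnt ligand, had 6.31 and 2.26 CPM in cKO, against 0.451 and 0.451 CPM in WT (adjusted p = 0.0249). It too passed the filter through cKO alone. Angptl4, a lipoprotein lipase inhibitor, had 10.3 and 10.03 CPM in cKO, against 2.35 and 1.504 CPM in WT (log2 change 2.39 ± 0.26, adjusted p = 0.00384). Arc, an immediate early gene of synaptic plasticity, had 78.0 and 59.4 CPM in cKO, against 264 and 290 CPM in WT (log2 change −2.01 ± 0.15, adjusted p = 0.00108), and its new peak was 302 bp from a WT peak. Robo3, an axon guidance receptor, had 14.3 and 12.4 CPM in cKO, against 49.4 and 36.2 CPM in WT (log2 change −1.68 ± 0.18, adjusted p = 0.00349). Stc2, a secreted glycoprotein hormone, Aldh3b1, Cryab and Col11a2 were called lower too, and their RNA fell by 1.31 to 1.99 on the log2 scale.

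At least 1 gene had a new peak at its start in 17 of the 24 gene lists examined. Over all reference genes 1920 of 34610 had one, and no list was tested against that share. In the list of 13 Dlx and subpallial genes 8 had a new peak and 5 were newly marked (Dlx2, Dlx6, Gsx1, Olig2 and Gad2), and none of the 10 tested passed at P21. Gad2, a GABA-synthesizing enzyme, had 158 and 141 CPM in cKO, against 129 and 143 CPM in WT (adjusted p = 0.504), so its start had no WT peak although its RNA was abundant in WT. Of 15 striatal genes 6 had a new peak and 3 were newly marked (Isl1, Tac1 and Six3), with 4 of 15 called higher. The imprinted list had 7 of 12, with Igf2 newly marked and 5 of 11 tested called higher, among them Plagl1 (51.6 and 35.5 CPM in cKO, against 16.3 and 18.8 CPM in WT, adjusted p = 0.0124). The immediate early list had 4 of 13 (Arc, Egr3, Npas4 and Homer1), each beside a WT peak, with 10 of 13 called lower and 1 higher, and of these 4 Arc and Homer1 passed.

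The Wnt list had 4 of 16 with a new peak (1 gene called higher and 1 lower of 13 tested), the choroid plexus and ependyma list 3 of 13, and the neural stem cell and neuroblast list 3 of 15 (4 higher and 4 lower of 14). The remaining lists had 1 or 2 such genes: thalamus 2 of 9 (1 of 6 tested higher), oligodendrocyte lineage 2 of 12, astrocyte 2 of 10 (1 higher and 2 lower of 9), mesenchymal transcription factors 2 of 13 (1 of 10 higher), p53 targets 2 of 12 (2 of 11 higher), endothelium and meninges 2 of 11 (2 higher, 2 lower), extracellular matrix 1 of 18 (3 higher and 3 lower of 16), H3K4 demethylases 1 of 7 (0 called) and BAF subunits 1 of 23, Arid1a itself (3 of 22 lower). Of 5 sex-linked genes 2 had one, both Y-linked, and Y-linked RNA was present in replicate 1 of both genotypes at P21 and in replicate 2 of neither. No new peak lay at the start of the 12 H3K4 methyltransferases and their core subunits, none of which passed the RNA test at P21 (with a median log2 change of −0.09), of the 11 microglia, 10 dentate granule neuron (6 lower), 11 CA pyramidal neuron (4 higher and 1 lower) and 5 erythrocyte genes (0 called), of the 9 Ugt1a genes (2 of 3 tested higher) or of 15 other Hox genes, of which none passed the RNA filter.

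At E16.5 no newly marked gene passed the test. Of 204 tested, 0 were called higher or lower (edgeR), where 0.0118% and 0.112% of all 16958 genes tested were called. At unadjusted p under 0.05 (edgeR), 2 of the 204 were higher and 55 lower, beside 1548 higher and 1951 lower of the 16958. DESeq2 called 1 higher and 21 lower, where it called 412 higher and 731 lower of all 16926 genes it tested. The median log2 change was −0.68, against −0.02 over all genes with a position, and every cKO library was below every WT library for 61 genes and above for 5, where all tested genes gave 15.3% and 14.0%. Genes with no cKO peak at the start and no WT peak in the gene had 258 below and 58 above of 1122. Their median was −0.33. Among all 1234 tested genes with a new peak 4 were called lower, Arid1a itself among them (log2 change −0.64, adjusted p = 0.0320, edgeR). The ChIP lists are from 3 weeks, so no E16.5 peaks stand beside these values.

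Individual E16.5 values varied widely between libraries of 1 group. Isl1 had 0.224, 0.283 and 17.6 CPM in cKO, against 0.947, 16.7 and 0.513 CPM in WT, and Six3 had 0.224, 2.04 and 17.1 CPM in cKO, against 16.7, 29.7 and 0.769 CPM in WT. Each thus had high and low libraries in both genotypes. Cp had 0.729, 0.792 and 2.75 CPM in cKO, against 27.2, 5.60 and 4.72 CPM in WT, and WT replicate 1 was the highest. Trf had 5.44, 5.65 and 8.54 CPM in cKO, against 28.9, 11.6 and 10.4 CPM in WT. The summed CPM of 11 endothelial and meningeal markers was 153, 167 and 206 in cKO, against 773, 249 and 294 in WT, and that of 13 choroid plexus and ependyma markers 9.1, 67.7 and 2608 in cKO, against 4995, 3369 and 57.1 in WT. Without WT replicate 1 the median of newly marked genes was −0.42, and with each other library left out it lay between −1.03 and −0.50. The part of these markers was not tested.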

How the data were processed

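ChIP peaks came from lists the authors deposited, called with MACS2 2.2.7.1 against input at a q limit of 0.01 per the file headers (version 2.2.5 per the submitters' processing notes), which also name Bowtie2 2.3.5.1 and GRCm38. Each peak has the authors' pileup signal, fold enrichment (a ratio to the local input expectation) and −log10 p and q values. There was 1 library per mark and genotype, so peak shares carry Wilson 95% intervals and no test. RNA tables hold estimated counts per gene, which the authors deposited and the processing notes link to Salmon 1.0.0. These were rounded to whole numbers (20.8 to 22.5% of values were not whole). Totals were 20089631 to 20332148 per P21 library and 17662335 to 19760764 per E16.5 library. Replicates are separate samples per the labels, with no statement on animals, so p-values measure the spread between these samples, which may be technical.

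A new peak shares no base with a WT peak. Gene starts came from the RefSeq promoter table (27024 genes), and either gene end was used for the other genes. A gene was assigned a peak within 1 kb of that point. RNA was tested with edgeR 4.0.16 (filterByExpr, TMM, quasi-likelihood, robust, Benjamini-Hochberg at 0.05 over all genes tested) in R 4.3.3, with DESeq2 1.42.0 as an alternative. The SE is the log2 change divided by the root of F. Of the genes tested, 85.8% at P21 and 85.3% at E16.5 had a reference position. On simulated P21 counts 85% of 2-fold changes were recovered and 37 of 220 calls were false. On simulated E16.5 counts 64% were recovered and 10 of 162 calls were false. The changes were planted only in genes above a minimum mean CPM, which several genes named here, such as Aire and Efcab8, did not reach. Peaks were handled with Python 3.11.15, pandas 2.3.3 and numpy 2.4.6.

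Genes were named by a rule: the 12 strongest new peaks at genes, the 10 highest and 8 lowest called P21 changes above 1 CPM in the higher group, up to 20 newly marked genes called, and up to 3 per list. Those named otherwise are said to be so or belong to counts of families, lists or peaks per gene. The members, lists and tests were chosen with earlier results of these data known. Some items that the rule would name are not reported here. The authors' deposited log2 fold changes were not used.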

Additional observations from a re-analysis of the deposited data

Results flagged for a closer look

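For 8 of the 62 named genes tested at both ages (12.9%) every cKO library lay to one side of every WT library at P21 and to the other side at E16.5; the difference between ages was not tested. The same was seen for 103 of 1185 genes with a new peak (8.69%) and for 7.198% of all 15851 genes tested at both ages. Cp had a log2 change of 1.34 at P21 and −3.12 at E16.5, Angptl4 2.39 and −2.10, Gata2 1.07 and −1.30, and Cyp2d22 0.68 and −0.89. Col1a2 had 0.22 and −3.43 and Pdgfrb 0.36 and −1.05. The opposite order was seen at Col11a2, with −1.31 and 0.32, and at Wnt7b, with −0.81 and 0.998.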

How the results depend on the processing

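New peaks numbered 3951 with a −log10 q of at least 5 and 3416 with no WT peak within 1 kb, against 6486 in the main setting. They numbered 4329 with lists of equal length, the cKO list being cut to its 25145 strongest peaks. Where a WT peak had to cover 0.5 or more of a cKO peak to count as shared, they numbered 8515. The share at a gene start was 30.8% at the stricter q, 33.4% where a WT peak had to cover 0.5 or more of a cKO peak to count as shared, 23.7% with no WT peak within 1 kb, 30.6% with lists of equal length and 65.0% within 5 kb of a start. The share with cKO H3K27ac was 14.6%, 15.9% and 14.7% under the first 3 of these, and 9.96% where the other mark had to cover 0.5 or more of the peak. WT H3K27ac was 4.10% with the stricter overlap between genotypes and 1.91% with the stricter overlap with the mark. For cKO H3K27me3 the shares were 18.0% (stricter overlap between genotypes), 21.4% (no WT peak within 1 kb) and 15.4% (stricter overlap with the mark), and for WT H3K27me3 7.85% and 4.70% under those last 2. The cause of these shifts was not tested.

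At P21, dropping the expression filter gave 118 genes with a new peak higher and 98 lower, and 34 and 17 newly marked ones; a 5 kb window gave 123 and 132. Leaving out 1 library gave 19 to 130 higher and 29 to 108 lower genes with a new peak, and 4 to 30 and 8 to 17 newly marked ones. At E16.5 genes with a new peak had 1 higher without the filter, 29 higher and 75 lower by DESeq2, 7 lower at 5 kb, 2 lower at the stricter q, and 0 to 2 lower with 1 library left out. Newly marked genes at E16.5 had 1 lower without the filter, and 1 higher and 21 lower by DESeq2. Over all genes DESeq2 called 412 higher and 731 lower at E16.5. No named gene's called change changed sign in the alternatives run, nor did the median of genes with a new peak or of newly marked genes. The P21 median over all genes tested did, from 0.0086 to −0.0087 without the filter and to −0.00097 without cKO replicate 2. At E16.5 the median over all genes tested went from −0.0101 to 0.0051 without cKO replicate 1. The balance of calls also turned. Genes with a new peak were more often lower than higher without WT replicate 2 and with the 5 kb window. Newly marked genes were more often lower without WT replicate 2. All genes were more often higher with upper-quartile scaling (570 higher, 519 lower).

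Samples with the same replicate number did not deviate together (correlation 0.02 at P21; −0.23, −0.02 and −0.49 at E16.5), so the numbers were not taken as pairs. The numbers do follow Y-linked RNA: Eif2s3y had 53.8 and 38.1 CPM in replicate 1 of cKO and WT at P21 and 42.7 and 50.1 CPM in replicate 3 at E16.5, and under 0.1 CPM in every other library. With a replicate block, 50 genes with a new peak were higher and 37 lower at P21, newly marked genes gave 15 and 9, and at E16.5 0 were called. Calls of Homer1 and Snrpn at P21 and of Aldoc and Arid1a at E16.5 were lost with the block.

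With 1 ChIP library per genotype, the lists' differences have no replicate check. A peak just under the q limit in WT counts as absent, and 68.3% of the weakest cKO peaks were new. With 2 libraries per genotype at P21, leaving 1 out leaves a single sample that is assumed to vary like the other group.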
